A study of Rattus norvegicus with 24 samples.

Results

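The comparison was hypoxia against normoxia in rat pulmonary microvascular endothelial cells (PMVECs) that carried a knockout (KO) of Pfkfb3 and were fed fructose. It used 6 of the 24 RNA-seq libraries of the study, 3 from each oxygen condition, and described all 14770 genes with enough counts to be tested. PMVECs line the smallest vessels of the lung, and the series examined how PFKFB3 bears on their use of fructose. Both groups were KO cells of the PMVEC line kept for 24 h in medium with 25 mM fructose, so that, by their labels, they shared genotype and sugar and differed in oxygen. For comparison, 6 libraries of wild-type (WT) cells with 25 mM fructose and 6 libraries of KO cells with 25 mM glucose, again 3 in normoxia and 3 in hypoxia for 24 h, were used. The labels name neither the oxygen level, the altered part of Pfkfb3 nor the clone, and no group held both sugars or none. Nor do they say whether the numbered samples were separate cultures, so the p-values measure spread among libraries that could be technical only.

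Cells sense low oxygen chiefly through the HIF transcription factors. With oxygen present, prolyl hydroxylases mark the HIF alpha subunit for destruction by the VHL ubiquitin ligase, and without it the subunit persists, pairs with ARNT and binds short DNA sites that contain the letters ACGTG. Well-known targets raise glucose uptake, glycolysis, lactate export and glycogen storage, hold pyruvate back from mitochondria, start mitophagy and release angiogenic factors such as VEGF-A. PFKFB3 makes fructose 2,6-bisphosphate, a potent activator of the phosphofructokinase step of glycolysis. Fructose that is phosphorylated by ketohexokinase joins the pathway below that step, whereas fructose phosphorylated by hexokinase joins it above.

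The 6 libraries held between 16063771 and 23028807 counts. Those of a group correlated at 0.983 to 0.986 in log2 CPM (counts scaled to 1e+06 per library) across genes, which are no independent replicates, and none was a duplicate of another. Mitochondrially encoded genes took 2.09 to 2.40% of the counts in normoxia and 1.61 to 2.96% in hypoxia. On the first principal component of the 6 libraries, which held 45.5% of the variance of the 1000 most variable genes, the oxygen conditions were apart. Of the endothelial markers, Vwf, Flt1 and Icam2 were well detected, at 36.8 to 211 CPM, whereas Cdh5, which encodes the defining endothelial cadherin, lay between 0.0623 and 0.42 CPM. Emcn, Cldn5, Robo4, Plvap, Sox17 and Sox18 had 0 counts in all 6 libraries, and in all, 6 of 19 matched endothelial markers were at 0 and 10 were under 1 CPM throughout. These cells therefore carried the endothelial label with only part of its marker set.

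Hypoxia changed 2956 genes, 20% of those tested, at an adjusted p under 0.05 in edgeR's quasi-likelihood test. The numbers were close in both directions, with 1434 genes higher (9.71%) and 1522 lower (10.3%), but the sizes were not. Among higher genes the median absolute log2 fold change was 0.67 and 487 (3.3% of all tested) rose at least 2-fold, whereas among lower genes it was 0.42 and 82 (0.555%) fell at least 2-fold. The libraries of the 2 conditions did not overlap for 1351 of the higher genes (9.15% of all tested) and 1500 of the lower ones (10.2%). Called or not, hypoxia libraries lay above all normoxia libraries in CPM for 2148 genes (14.5%) and below them for 3472 (23.5%), so that separate libraries alone were frequent, more so downward. Across all tested genes the median log2 fold change was -0.007. Counts of called list members below are to be read against the shares over all genes, 9.71% higher and 10.3% lower. Genes of glycogen synthesis, mitophagy and other HIF targets lie among the highest points in the plot of change against mean level. Fewer cells with a transcript and less RNA per cell cannot be told apart in these bulk libraries.

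**Figure D1:**
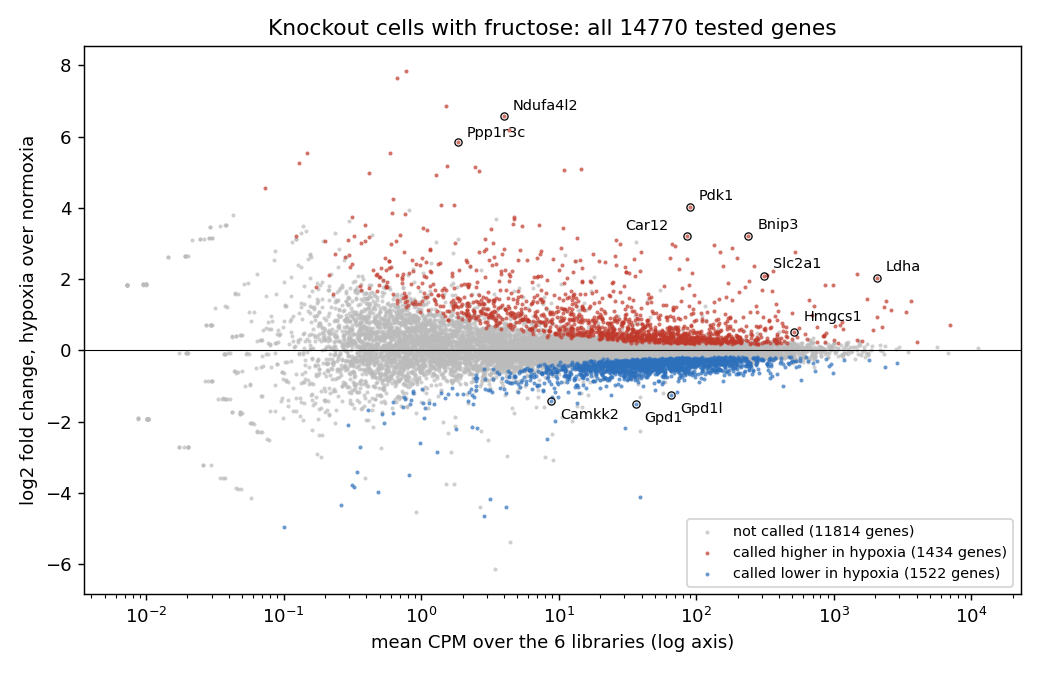
Log2 fold change, hypoxia over normoxia, in KO cells with fructose against mean CPM over the 6 libraries (log axis), 1 point a tested gene; red genes were called higher (1434), blue lower (1522) and grey not called, and genes at 0 in all 6 libraries are not drawn. Pdk1, Bnip3, Ppp1r3c and Ndufa4l2 lie far above the cloud, and most called lower genes, among them Gpd1, Gpd1l and Camkk2, stay closer to 0.

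The targeted gene itself was read in every library. Pfkfb3 (ENSRNOG00000018911, chr17:70684134-70713726 in Rnor_6.0) had 39.1, 31.9 and 34.9 CPM in normoxia and 53.4, 62.8 and 56.2 CPM in hypoxia. With glucose, KO libraries held 38.4, 37.2 and 43.03 CPM in normoxia and 45.5, 42.4 and 48.1 CPM in hypoxia, and WT libraries with fructose held 126, 113 and 108 and 143, 159 and 149 CPM. Reads over the gene were thus present in all KO libraries, below those of WT with fructose, and since the altered part of the gene is not given these sums do not check the knockout. In KO cells with fructose the hypoxia libraries stood apart from the normoxia libraries, and the log2 fold change was 0.75 ± 0.09 (adjusted p = 1.41e-06). Of the other PFKFB and FBP genes 4 were tested, and 0 passed in edgeR or DESeq2 or had an unadjusted p under 0.05.

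Glycolysis rose as a group. Of 15 tested glycolysis genes 13 were called higher and 0 lower, with a median log2 fold change of 1.68 against -0.007 over all genes, and leaving out any 1 library kept the count at 13. Slc2a1, which encodes the glucose transporter GLUT1, had 124, 121 and 118 CPM in normoxia and 533, 510.0 and 463 CPM in hypoxia, a change of 2.101 ± 0.12 (adjusted p = 1.38e-12). It was the 1 called gene among 7 sugar transporters. Slc2a5, the fructose transporter GLUT5, had 36.6, 34.8 and 32.04 CPM in normoxia and 32.2, 30.4 and 28.5 CPM in hypoxia; its hypoxia and normoxia ranges overlapped and the change of -0.14 ± 0.200 (adjusted p = 0.703) missed the threshold.

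Hexokinase and the first steps were among the genes that rose. Hk2, the inducible hexokinase, had 108, 114 and 90.9 CPM in normoxia and 348, 356 and 332 CPM in hypoxia, and its libraries did not overlap (1.77 ± 0.102, adjusted p = 1.66e-12). Gpi, the isomerase that makes fructose 6-phosphate, had 433, 415 and 466 CPM in normoxia and 1571, 1412 and 1596 CPM in hypoxia and changed by 1.85 ± 0.07 (adjusted p = 3.7e-16). Phosphofructokinase is the enzyme that the product of PFKFB3 activates, and its Pfkp and Pfkl genes rose. Pfkp had 52.5, 52.5 and 48.8 CPM in normoxia and 265, 247 and 267 CPM in hypoxia, a change of 2.38 ± 0.08 (adjusted p = 4.53e-17). Pfkl had 133, 128 and 118 CPM in normoxia and 550.0, 564 and 469 CPM in hypoxia, a change of 2.11 ± 0.12 (adjusted p = 6.28e-12); it lay outside the naming rule and was chosen after its values were seen. Muscle-type Pfkm and the neuronal enolase Eno2 were the 2 glycolysis members that missed the threshold.

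Genes of the lower part of the pathway rose too. Aldoa, the aldolase of most tissues, had 1001, 931 and 971 CPM in normoxia and 2675, 2538 and 2410 CPM in hypoxia and changed by 1.44 ± 0.07 (adjusted p = 7.54e-14). Pgk1, the first ATP-yielding step, had 564, 568 and 538 CPM in normoxia and 2470, 2483 and 2164 CPM in hypoxia and changed by 2.14 ± 0.12 (adjusted p = 1.3e-12). Ldha, which turns pyruvate into lactate, had 798, 804 and 869 CPM in normoxia and 3446, 3249 and 3133 CPM in hypoxia and changed by 2.04 ± 0.097 (adjusted p = 4.08e-14). In each of these the libraries of the 2 groups were far apart, as the plot of values by library shows for Pgk1 and Ldha. Glycolytic genes have near-identical processed copies in the genome, so that their counts are uncertain to the extent that reads were split among copies.

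**Figure D2:**
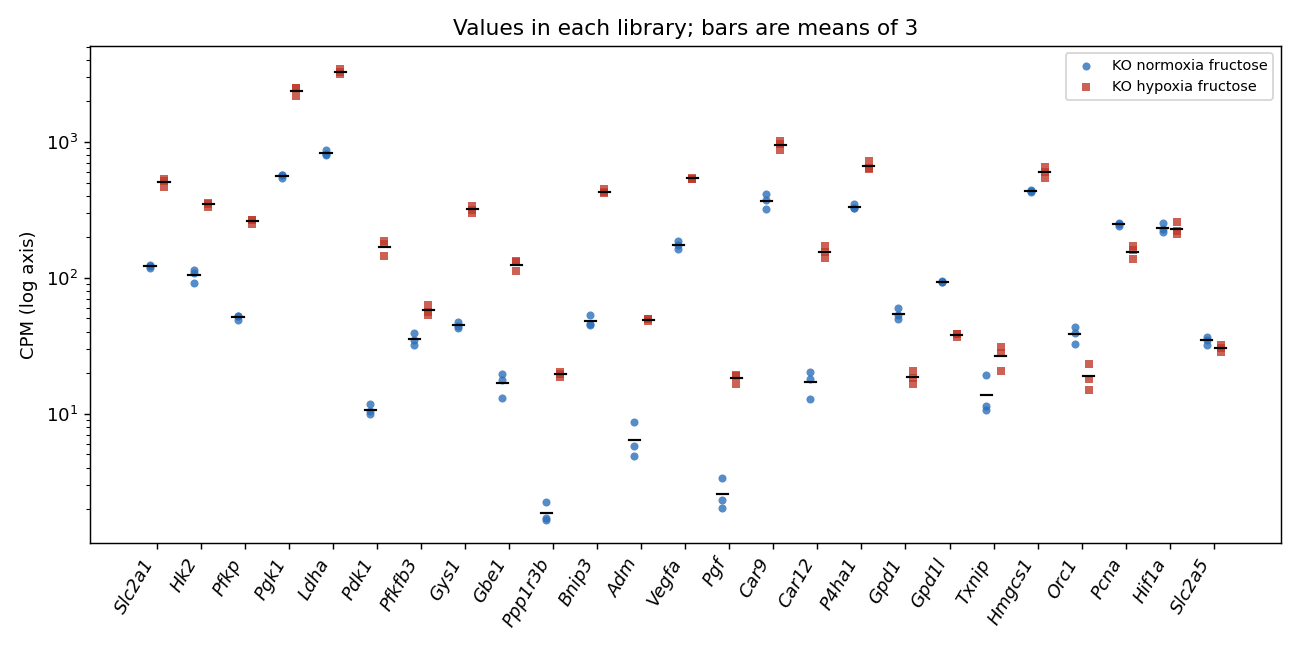
CPM (log axis) of 25 genes in each of the 6 libraries of KO cells with fructose, blue circles normoxia, red squares hypoxia, black bars the means of 3. The glycolysis, glycogen and HIF target genes are separated by oxygen with narrow spread, Gpd1 and Gpd1l are separated in the other direction, and Hif1a and Slc2a5 overlap.

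Genes for the export of lactate and protons were also higher, 6 of 9 tested and 0 lower, with a median of 1.09. Bsg, the chaperone of the lactate transporters, had 2221, 2073 and 2257 CPM in normoxia and 4352, 4708 and 4413 CPM in hypoxia, a change of 1.08 ± 0.08 (adjusted p = 3.83e-10). Car9 and Car12 encode membrane carbonic anhydrases that handle protons outside the cell. Car9 had 370.3, 320.5 and 412 CPM in normoxia and 1005, 871 and 967 CPM in hypoxia, a change of 1.41 ± 0.11 (adjusted p = 6.65e-10), and Car12 had 18.1, 20.4 and 12.8 CPM in normoxia and 169.6, 140.4 and 153 CPM in hypoxia, a change of 3.23 ± 0.205 (adjusted p = 5.21e-10). The bicarbonate transporter gene Slc4a4 rose by 1.51 on the log2 scale (adjusted p = 8.18e-10). Slc16a1, the lactate transporter MCT1, had 143, 143 and 130.4 CPM in normoxia and 161, 157 and 169 CPM in hypoxia; it passed at 0.27 (adjusted p = 0.0199), a call that was lost without normoxia 3, hypoxia 1 or hypoxia 3 (adjusted p = 0.102, 0.0562 and 0.066). Slc16a3, the other lactate transporter on the list, missed the threshold.

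Pdk1 had the smallest p of all tested genes. Its product phosphorylates and switches off pyruvate dehydrogenase, which keeps pyruvate out of the TCA cycle. Pdk1 (ENSRNOG00000001517, chr3:58530870-58558027 in Rnor_6.0) had 9.84, 10.5 and 11.8 CPM in normoxia and 186, 143 and 175 CPM in hypoxia, and the log2 fold change was 4.02 ± 0.11 (adjusted p = 6.32e-19). The 3 normoxia libraries lay far below the 3 hypoxia libraries. Of 15 tested TCA cycle genes 7 were called lower, 1 higher and 7 neither, with a median of -0.20. Ogdh, part of the 2-oxoglutarate dehydrogenase complex, had 67.1, 68.7 and 61.4 CPM in normoxia and 43.8, 40.3 and 43.5 CPM in hypoxia, a change of -0.58 ± 0.12 (adjusted p = 0.00102). Idh2, the mitochondrial NADP-dependent isocitrate dehydrogenase, had 135, 132 and 148 CPM in normoxia and 98.4, 95.5 and 93.8 CPM in hypoxia, a change of -0.48 ± 0.08 (adjusted p = 0.000188). The member that rose was Idh1, its cytosolic counterpart, with 81.7, 72.7 and 95.7 CPM in normoxia and 116, 105 and 121 CPM in hypoxia and a change of 0.498 ± 0.09 (adjusted p = 0.00015). The count of 7 dropped to 3 without normoxia 2 and to 4 without hypoxia 3.

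Of 26 nuclear-encoded respiratory chain subunits tested 4 were lower and 0 higher (median -0.13), against 10.3% lower and 9.71% higher over all genes. The count of 4 became 1 or 2 without normoxia 1, normoxia 2, normoxia 3 or hypoxia 3. It was 2 with DESeq2's size factors or without the filter on low counts. With equal sample numbers fitted as a block it was 10 over all libraries and 8 with the 6 libraries alone. None of 12 mitochondrially encoded subunits passed in edgeR or DESeq2 or had an unadjusted p under 0.05 (0 of 12 each), where the share of the library they take varied most among the hypoxia libraries. Ndufa4, a subunit of cytochrome oxidase, had 141, 124 and 156 CPM in normoxia and 104, 108 and 116 CPM in hypoxia, a change of -0.32 ± 0.07 (adjusted p = 0.00331). Its relative Ndufa4l2, known as a HIF target, went from the edge of detection to a clear level, with 0.121, 0.124 and 0.000 CPM in normoxia and 7.21, 7.82 and 8.71 CPM in hypoxia (6.59 ± 0.63, adjusted p = 2.85e-08). The Ndufa4l2 fold is uncertain in size because the normoxia libraries held almost no reads. Cox4i2, the oxygen-regulated subunit of cytochrome oxidase, was below the filter, with 1 count over the normoxia libraries and 20 over the hypoxia libraries, a ratio of 18.1 with a 95% counting interval of 2.90 to 751, which covers counting error only.

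Of 9 tested genes of the mitophagy list 4 were called higher, 0 lower and 5 neither (median 0.23). Bnip3, a receptor on the outer mitochondrial membrane, had 44.9, 45.3 and 53.5 CPM in normoxia and 446, 418 and 423 CPM in hypoxia, a change of 3.21 ± 0.11 (adjusted p = 6.46e-17). Its homologue Bnip3l had 259, 248 and 269.7 CPM in normoxia and 509, 439.8 and 517 CPM in hypoxia and changed by 0.96 ± 0.09 (adjusted p = 7.68e-09). Hypoxia and normoxia libraries were apart for both. Map1lc3b, the autophagosome protein to which such receptors bind, and the receptor gene Fkbp8 rose by 0.397 (adjusted p = 0.000373) and 0.39 (adjusted p = 0.000671) on the log2 scale.

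Genes that build glycogen showed some of the largest changes. Gys1, the glycogen synthase outside the liver, had 42.7, 47.4 and 43.9 CPM in normoxia and 336, 299 and 315 CPM in hypoxia, a change of 2.87 ± 0.096 (adjusted p = 4.97e-17). Gbe1, the branching enzyme, had 13.1, 17.7 and 19.5 CPM in normoxia and 132, 112 and 129 CPM in hypoxia, a change of 2.93 ± 0.13 (adjusted p = 2.65e-14). Ppp1r3b and Ppp1r3c encode subunits that bring protein phosphatase 1 to glycogen, where it activates the synthase. Ppp1r3b had 1.64, 2.24 and 1.72 CPM in normoxia and 19.5, 18.6 and 20.2 CPM in hypoxia, a change of 3.42 ± 0.18 (adjusted p = 3.95e-13). Ppp1r3c had 1 count in each normoxia library and 74, 57 and 70 counts in hypoxia, a ratio of 60.7 with a 95% counting interval of 20.5 to 297. With these 4 genes higher, 1 of 11 tested members was lower. That member was Gyg1, the glycogenin primer, whose call was lost without any 1 of normoxia 1, normoxia 3, hypoxia 1, hypoxia 2 or hypoxia 3 (adjusted p = 0.0842, 0.189, 0.126, 0.0534 and 0.0962). Pygl, a glycogen phosphorylase, had 0 counts in all 6 KO fructose libraries, whereas WT cells with fructose held 37, 43 and 42 counts in hypoxia and 0 in normoxia.

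Of 31 tested genes on a list of other HIF targets 26 were called higher and 0 lower, with a median log2 fold change of 1.4. Adm, the vasodilator peptide adrenomedullin, had 8.68, 4.86 and 5.72 CPM in normoxia and 47.9, 49.5 and 49.6 CPM in hypoxia, a change of 2.98 ± 0.17 (adjusted p = 1.17e-12). Ankrd37, an ankyrin-repeat protein, had 0.668, 0.685 and 0.884 CPM in normoxia and 8.65, 8.55 and 8.53 CPM in hypoxia, a change of 3.55 ± 0.28 (adjusted p = 5.52e-10). Fam162a, a mitochondrial protein linked to cell death in hypoxia, had 60.5, 58.02 and 55.2 CPM in normoxia and 348, 362 and 303 CPM in hypoxia, a change of 2.59 ± 0.09 (adjusted p = 1.53e-16). Higd1a, a small protein of the inner mitochondrial membrane, had 26.5, 27.2 and 23.04 CPM in normoxia and 161, 162 and 113 CPM in hypoxia, a change of 2.56 ± 0.17 (adjusted p = 5.21e-10). In all 4 the hypoxia libraries lay above every normoxia library. Pgm1, which links glucose 1-phosphate and glucose 6-phosphate, Ndrg1, a stress protein, and Insig2, an anchor that holds sterol regulators in the endoplasmic reticulum, rose by 1.88, 1.83 and 2.23 on the log2 scale (adjusted p = 4.03e-14, 4.68e-14 and 5.75e-15).

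The promoters of the 4 most raised genes of the glycolysis, HIF target, oxygen sensing and mitophagy lists that hold the core letters of a HIF site are printed to show where those letters lie. Each runs from 250 bases before to 50 bases after the transcription start in RefSeq (GRCr8), 5′ to 3′ on the strand of the gene, with ACGTG or its reverse complement CACGT in capitals. The palindrome CACGTG holds both and counts once on each strand.
Ankrd37 (chr16:53001257-53001556, plus strand): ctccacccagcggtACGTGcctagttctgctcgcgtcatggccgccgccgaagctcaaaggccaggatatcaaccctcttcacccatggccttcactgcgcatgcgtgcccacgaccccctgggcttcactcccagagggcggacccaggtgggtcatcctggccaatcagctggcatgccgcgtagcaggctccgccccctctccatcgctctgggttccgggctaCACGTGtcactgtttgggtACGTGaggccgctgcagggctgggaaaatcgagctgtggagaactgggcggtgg
Bnip3 (chr1:203154913-203155212, minus strand): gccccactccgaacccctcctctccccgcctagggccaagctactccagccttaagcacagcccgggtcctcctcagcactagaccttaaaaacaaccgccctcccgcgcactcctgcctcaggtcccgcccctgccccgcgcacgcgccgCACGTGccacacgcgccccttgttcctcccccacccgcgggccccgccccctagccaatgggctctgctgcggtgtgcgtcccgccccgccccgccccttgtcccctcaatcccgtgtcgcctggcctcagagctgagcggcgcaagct
Fam162a (chr11:78186051-78186350, plus strand): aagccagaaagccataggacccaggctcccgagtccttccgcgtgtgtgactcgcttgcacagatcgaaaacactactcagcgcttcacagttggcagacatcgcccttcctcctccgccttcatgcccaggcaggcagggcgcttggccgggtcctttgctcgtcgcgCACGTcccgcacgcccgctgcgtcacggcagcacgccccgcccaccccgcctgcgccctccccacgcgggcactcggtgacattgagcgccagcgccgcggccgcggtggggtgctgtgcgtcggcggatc
Higd1a (chr8:130400839-130401138, minus strand): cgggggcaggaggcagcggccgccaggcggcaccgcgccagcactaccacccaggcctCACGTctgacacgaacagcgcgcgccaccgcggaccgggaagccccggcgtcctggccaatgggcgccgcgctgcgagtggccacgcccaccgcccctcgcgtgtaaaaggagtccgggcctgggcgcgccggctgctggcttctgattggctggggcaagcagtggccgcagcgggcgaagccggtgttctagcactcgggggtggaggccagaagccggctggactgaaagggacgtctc
Ankrd37 held 4 matches, of which 3 lay within 23 bases before the start. Bnip3 held 2 overlapping matches at 99 and 98 bases before the start. Fam162a held 1 match at 81 bases and Higd1a 1 match at 192 bases before it.

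The same letters were counted in all promoters of the RefSeq table. They occurred in 19.7% of 27457 promoters and in 25.9% of the 8878 that matched a tested gene by symbol. The share was 33.5% among 815 called higher genes, 25.2% among 1135 called lower genes and 25.1% among 6928 genes not called. Among the 174 called higher genes that rose at least 2-fold it was 31.0%. Of the 44 called higher members of the 4 lists 38 matched a promoter, and 20 of these (52.6%) held the letters. A match of 5 letters is a description of the sequence and not evidence of binding, and a promoter without one says only that the letters are absent from that window.

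On the list of oxygen sensing and HIF subunits 1 of 6 tested genes was higher and 0 lower in RNA, where 9.71% and 10.3% of all genes were called. Hif1a, which encodes the main HIF alpha subunit, had 215, 227 and 253 CPM in normoxia and 221, 208 and 257 CPM in hypoxia, and its groups overlapped (0.03 ± 0.08, adjusted p = 0.861). Epas1, which encodes HIF-2 alpha, was below the filter, with 1 count over the normoxia libraries and 4 over the hypoxia libraries. Egln3, a HIF prolyl hydroxylase gene that is itself a well-known HIF target, had 0 counts in all 6 libraries, whereas WT libraries with fructose held 0, 4 and 4 counts in normoxia and 48, 36 and 42 in hypoxia. Egln3 passed the filter through other groups, so no change of it could be called in KO cells with fructose. Of 6 tested members of the oxygen sensing list Vhl alone passed, at 0.25 (adjusted p = 0.0225), and that call was lost without normoxia 1, normoxia 2, hypoxia 1 or hypoxia 2 (adjusted p = 0.0911, 0.113, 0.0572 and 0.0526).

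Enzymes that hydroxylate and cross-link collagen were higher, 7 of 13 tested, with 3 lower and a median of 0.79. P4ha1, the catalytic subunit of collagen prolyl hydroxylase, had 327, 322 and 347 CPM in normoxia and 638, 632 and 719 CPM in hypoxia, a change of 1.04 ± 0.07 (adjusted p = 9.58e-11). Plod2, a lysyl hydroxylase, had 140.4, 138 and 158 CPM in normoxia and 479, 423 and 479 CPM in hypoxia, a change of 1.71 ± 0.07 (adjusted p = 7.4e-15), and Plod1 rose by 1.08 (adjusted p = 9.08e-12). Loxl2, a lysyl oxidase, had 254, 235 and 259 CPM in normoxia and 440.4, 422 and 432 CPM in hypoxia, a change of 0.84 ± 0.07 (adjusted p = 5.71e-10). Its relative Loxl3 went the other way, with 46.8, 44.5 and 43.7 CPM in normoxia and 26.9, 29.6 and 28.4 CPM in hypoxia and a change of -0.62 ± 0.08 (adjusted p = 4.08e-06). The collagens themselves did not follow, since 1 of 12 tested was higher and 2 were lower (1 without normoxia 1, normoxia 2 or hypoxia 3). Over all genes 9.71% were higher and 10.3% lower. Col12a1 had 275, 283 and 285 CPM in normoxia and 482, 460.2 and 533 CPM in hypoxia (0.85 ± 0.11, adjusted p = 6.41e-06), and Col1a1, the main fibrillar collagen chain, had 2633, 2781 and 2879 CPM in normoxia and 2015, 1777 and 2012 CPM in hypoxia (-0.47 ± 0.09, adjusted p = 0.000413).

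Among angiogenic ligands and receptors 6 of 16 tested genes were higher and 3 lower. The largest rises among those described were of ligands. Vegfa, the chief endothelial growth factor, had 174, 186 and 162 CPM in normoxia and 531, 544 and 534 CPM in hypoxia, a change of 1.67 ± 0.105 (adjusted p = 9.04e-12). Pgf, placental growth factor, had 2.004, 2.303 and 3.38 CPM in normoxia and 18.97, 16.5 and 19.3 CPM in hypoxia, a change of 2.87 ± 0.26 (adjusted p = 9.31e-09). Apln, the vascular peptide apelin, had 17.2, 16.8 and 21.7 CPM in normoxia and 121, 113 and 94.3 CPM in hypoxia, a change of 2.601 ± 0.18 (adjusted p = 7.62e-10). For each ligand the groups did not overlap. Receptors went both ways. Flt4, the receptor of VEGF-C, passed at 0.21 (adjusted p = 0.0325), a call lost without normoxia 3, hypoxia 1 or hypoxia 2 (adjusted p = 0.199, 0.0913 and 0.0827), without the filter (0.0699) and with the 6 libraries alone (0.0626), whereas Nrp1, a coreceptor of VEGF, and Notch1 were lower. Nrp1 had 37.8, 40.3 and 44.9 CPM in normoxia and 24.02, 21.9 and 23.1 CPM in hypoxia (-0.79 ± 0.098, adjusted p = 1.71e-06), and Notch1 had 35.1, 38.5 and 38.6 CPM in normoxia and 18.6, 22.1 and 25.4 CPM in hypoxia (-0.72 ± 0.13, adjusted p = 0.000414).

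Of 5 tested fructose and polyol genes 3 were lower and 0 higher, with a median of -0.38. Tkfc, the kinase that phosphorylates the glyceraldehyde made from fructose 1-phosphate, had 64.00, 61.2 and 75.5 CPM in normoxia and 44.5, 52.7 and 52.2 CPM in hypoxia, a change of -0.38 ± 0.09 (adjusted p = 0.0033). Sord, which makes fructose from sorbitol, had 216, 203 and 210.2 CPM in normoxia and 161, 184 and 163 CPM in hypoxia, a change of -0.26 ± 0.06 (adjusted p = 0.0049). In both, the normoxia libraries lay above the hypoxia libraries. Akr1b1, aldose reductase, had 602, 649 and 610.3 CPM in normoxia and 415, 456 and 428 CPM in hypoxia (-0.47 ± 0.14, adjusted p = 0.0155), and its call was lost without normoxia 2, hypoxia 1 or hypoxia 3 (adjusted p = 0.0617, 0.0585 and 0.0533). Khk, ketohexokinase, stayed under 1 CPM, with 0.911, 0.311 and 0.728 CPM in normoxia and 0.240, 0.434 and 0.401 CPM in hypoxia, and its change of -0.79 ± 0.62 (adjusted p = 0.418) missed the threshold.

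The glycerol 3-phosphate dehydrogenase genes were among the 15 largest falls under the naming rule. Gpd1, which reduces dihydroxyacetone phosphate from the aldolase step, had 52.6, 49.9 and 59.7 CPM in normoxia and 16.6, 18.3 and 20.5 CPM in hypoxia, a change of -1.51 ± 0.26 (adjusted p = 0.000398). Gpd1l, which encodes a related enzyme, had 92.5, 94.00 and 92.1 CPM in normoxia and 36.4, 38.7 and 38.7 CPM in hypoxia, a change of -1.25 ± 0.07 (adjusted p = 1.26e-12). The libraries of both genes were fully apart by oxygen. Txnip, a brake on glucose uptake whose RNA is known to follow sugar phosphates, had 11.4, 10.7 and 19.3 CPM in normoxia and 27.9, 20.6 and 30.9 CPM in hypoxia. Its lowest hypoxia library lay just above its highest normoxia library, and it rose by 0.97 ± 0.25 (adjusted p = 0.00836).

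Cholesterol synthesis rose by smaller amounts. Of 24 tested genes of cholesterol synthesis and uptake 18 were called higher and 0 lower, with a median of 0.39. Hmgcs1, the synthase that feeds HMG-CoA into the pathway, had 436, 423 and 437 CPM in normoxia and 601, 541 and 655 CPM in hypoxia, a change of 0.52 ± 0.095 (adjusted p = 0.00035). Sqle, the squalene epoxidase, had 337, 359 and 364 CPM in normoxia and 534, 511 and 571 CPM in hypoxia, a change of 0.65 ± 0.09 (adjusted p = 4.43e-06). Cyp51, which demethylates lanosterol, had 611, 568 and 612 CPM in normoxia and 927, 845 and 986 CPM in hypoxia, a change of 0.67 ± 0.09 (adjusted p = 6.37e-06). No library crossed between the groups in these 3 genes. Insig1, the sterol-sensitive anchor, and Srebf2, the transcription factor of the pathway, rose by 0.68 and 0.37 (adjusted p = 1.48e-05 and 0.000102). Leaving out 1 library moved the count of 18 to between 12 and 18.

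Of 14 tested genes of fatty acid synthesis 6 were higher and 2 lower. The lower ones, Acaca and Elovl5, which encode acetyl-CoA carboxylase and an elongase, changed by -0.301 and -0.203 (adjusted p = 0.0321 and 0.0496), and both lost the call without any 1 library but hypoxia 3 (0.0585 to 0.0989 and 0.0687 to 0.18). Acly, which makes cytosolic acetyl-CoA from citrate, had 736, 762 and 728 CPM in normoxia and 1002, 999 and 1050 CPM in hypoxia, a change of 0.500 ± 0.07 (adjusted p = 6.1e-06). Acss2, which makes it from acetate, had 41.7, 37.8 and 42.7 CPM in normoxia and 62.1, 59.2 and 75.4 CPM in hypoxia, a change of 0.73 ± 0.14 (adjusted p = 0.000737). The desaturase genes Scd1 and Scd2, which are near-identical and so uncertain apart, rose by 0.699 and 0.71 (adjusted p = 0.000248 and 1.41e-06). Of 15 tested genes of fatty acid oxidation and lipid droplets 5 were higher and 2 lower (1 without normoxia 2, normoxia 3, hypoxia 1 or hypoxia 2). Plin2, the coat protein of lipid droplets, had 79.2, 76.5 and 86.6 CPM in normoxia and 139, 135 and 142 CPM in hypoxia, a change of 0.82 ± 0.06 (adjusted p = 1.86e-10). Acadvl, the first enzyme of very-long-chain oxidation, had 52.7, 55.03 and 57.3 CPM in normoxia and 37.5, 39.9 and 40.7 CPM in hypoxia, a change of -0.44 ± 0.08 (adjusted p = 0.000333).

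DNA replication genes were lower. Of 24 tested 16 were called lower and 0 higher, with a median of -0.52. Pcna, the sliding clamp of the polymerases, had 241, 253 and 249 CPM in normoxia and 161, 169 and 136 CPM in hypoxia, a change of -0.63 ± 0.13 (adjusted p = 0.000976). Pold1, a polymerase subunit, had 79.6, 80.99 and 70.95 CPM in normoxia and 43.2, 50.02 and 40.04 CPM in hypoxia, a change of -0.75 ± 0.099 (adjusted p = 4.08e-06). Tyms, which makes thymidylate, had 97.03, 100.2 and 105 CPM in normoxia and 61.96, 64.3 and 73.4 CPM in hypoxia, a change of -0.56 ± 0.08 (adjusted p = 2.25e-05). In these 3 genes every normoxia library lay above every hypoxia library. The count of 16 dropped to 10 without hypoxia 1 and to 9 without hypoxia 3. Of 20 mitosis genes 7 were lower and 0 higher, among them Cdc20, an activator of the anaphase-promoting complex, with 206, 214 and 202 CPM in normoxia and 144, 149 and 119.6 CPM in hypoxia (-0.55 ± 0.102, adjusted p = 0.000382). The mitosis count was 13 when the fit held the 6 libraries alone and 14 when it held the 12 KO libraries. Around the G1 phase, cyclin D1 (Ccnd1) had 293, 294 and 279 CPM in normoxia and 186, 199 and 193 CPM in hypoxia (-0.54 ± 0.09, adjusted p = 0.000145), and the inhibitor p27 (Cdkn1b) had 111, 94.4 and 106 CPM in normoxia and 136, 145 and 141 CPM in hypoxia (0.48 ± 0.09, adjusted p = 0.000211).

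Other housekeeping groups were close to still or fell. Of 20 cytosolic ribosomal protein genes 0 passed in edgeR and 1 in DESeq2, with 2 at an unadjusted p under 0.05 (median 0.005). Of 20 mitochondrial ribosomal protein genes 5 were lower and 0 higher (median -0.25), a count that lay between 2 and 9 on leaving out normoxia 1, normoxia 2, hypoxia 2 or hypoxia 3. Heat shock chaperones had 6 of 12 tested members lower and 0 higher (median -0.29). Hspd1, the mitochondrial HSP60, had 444, 481 and 384 CPM in normoxia and 240.0, 284 and 224 CPM in hypoxia (-0.76 ± 0.14, adjusted p = 0.00035). Hspb1, a small heat shock protein, had 139.6, 130.4 and 144 CPM in normoxia and 73.01, 78.7 and 67.01 CPM in hypoxia (-0.87 ± 0.13, adjusted p = 4.12e-05), and normoxia exceeded hypoxia in each library of both.

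Endoplasmic reticulum chaperones and genes of the unfolded protein response gave 4 higher and 1 lower of 22 tested (median 0.08), where 9.71% and 10.3% of all genes were called. The count of 4 became 1 without normoxia 1 or hypoxia 3 and 2 without normoxia 2, and the 1 lower became 0 without normoxia 1, normoxia 3, hypoxia 2 or hypoxia 3. Hspa5, the chaperone BiP, had 1157, 1217 and 1177 CPM in normoxia and 1356, 1353 and 1384 CPM in hypoxia; its hypoxia libraries were the higher ones, but 0.25 ± 0.16 (adjusted p = 0.294) missed the threshold, which it passed when the fit held the 12 KO libraries alone (adjusted p = 0.00873) or the 6 libraries alone (adjusted p = 0.00911). Ddit3, which encodes CHOP, rose by 0.52 ± 0.13 (adjusted p = 0.00614), and this call was lost without hypoxia 2 (adjusted p = 0.0527). The ATF4 amino acid list and the aminoacyl-tRNA synthetases each had 1 gene higher and 1 lower of 18 tested. The lower genes were Psat1, of serine synthesis (-0.43, adjusted p = 0.000226), and Kars, the lysine synthetase (-0.37, adjusted p = 0.00312). The higher genes were Dars, the aspartate synthetase (0.77, adjusted p = 4.67e-06), and Trib3, a pseudokinase (0.48, adjusted p = 0.0423), whose call was lost without normoxia 1, normoxia 3, hypoxia 1 or hypoxia 2 (adjusted p = 0.131, 0.15, 0.108 and 0.15).

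Lysosomal genes leaned upward, with 9 of 21 tested members higher and 0 lower (median 0.21), a count that dropped to 5 without normoxia 2 or without hypoxia 1. Immediate early genes had 6 of 14 tested members higher and 0 lower (median 0.49). Klf6, a zinc finger factor, had 27.02, 25.96 and 20.9 CPM in normoxia and 41.97, 40.7 and 38.1 CPM in hypoxia, a change of 0.76 ± 0.11 (adjusted p = 1.82e-05). Of 14 NRF2 and glutathione genes 3 were lower and 1 higher, and Srxn1 among them was at 0 counts in all 6 libraries and passed the filter through other groups. The lower count was 5 with the 12 KO or the 6 libraries alone. The quinone reductase Nqo1 had 604, 606 and 504 CPM in normoxia and 280.4, 308 and 244 CPM in hypoxia (-0.997 ± 0.24, adjusted p = 0.00753), while Gclc, the catalytic subunit for glutathione synthesis, had 247, 248 and 233 CPM in normoxia and 429.8, 384 and 474 CPM in hypoxia (0.87 ± 0.09, adjusted p = 2.11e-07). In these 3 genes no library crossed between the oxygen conditions.

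**Figure D3:**
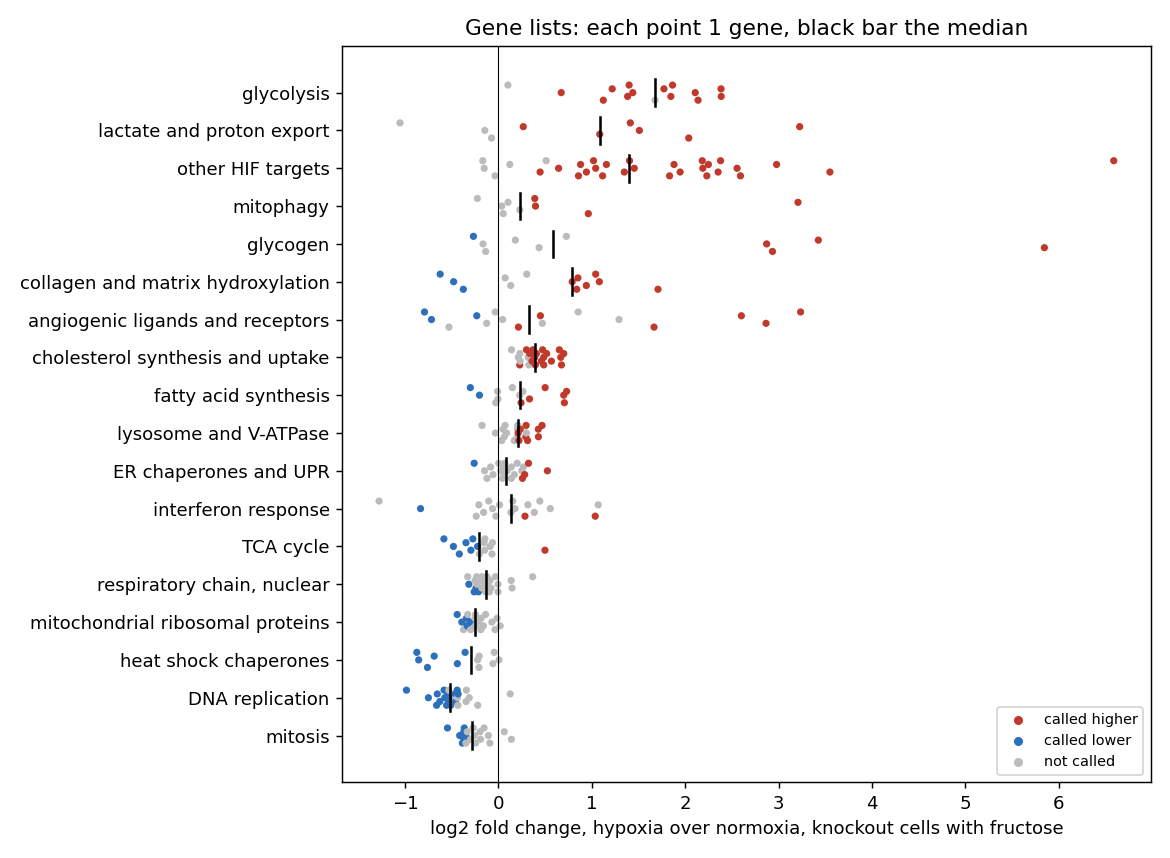
Log2 fold change, hypoxia over normoxia, of the tested members of 18 gene lists in KO cells with fructose, 1 point a gene (red called higher, blue called lower, grey not called), with a black bar at each median; Pygl of the glycogen list, at 0 counts in all 6 libraries, is not drawn. Glycolysis and HIF targets lie far to the right with medians of 1.68 and 1.4, cholesterol synthesis sits closer at 0.39, and DNA replication lies to the left at -0.52.

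The 15 genes with the largest rise, by a rule that asked for separate libraries and a mean of at least 2 CPM, held Ndufa4l2, Pdk1, Ankrd37, Ppp1r3b, Car12, Bnip3, Adm, Gbe1, Gys1 and Pgf, given above, and 5 genes from no list. Rab40b, a small GTPase of ubiquitin ligase complexes, had 0.0607, 0.0622 and 0.208 CPM in normoxia and 9.37, 7.99 and 8.42 CPM in hypoxia (6.18 ± 0.35, adjusted p = 1.45e-12). Pglyrp1, a peptidoglycan recognition protein, had 0.850, 0.436 and 0.728 CPM in normoxia and 10.9, 7.17 and 8.42 CPM in hypoxia (3.74 ± 0.42, adjusted p = 4.4e-07). Pgbd5, a gene derived from a transposase, had 0.425, 1.06 and 0.624 CPM in normoxia and 8.65, 10.5 and 7.39 CPM in hypoxia (3.69 ± 0.42, adjusted p = 1.76e-06). In normoxia these genes lay at or below about 1 CPM. Klhl40, a kelch protein known from muscle, and Ankrd29 rose by 3.13 and 3.02 (adjusted p = 8.63e-07 and 1.27e-05).

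The 15 genes with the largest fall under the same rule moved less far. Without that rule 82 called lower genes fell at least 2-fold and 21 at least 4-fold, so larger falls than most of those named here exist. Camkk2, a kinase upstream of AMPK, had 13.4, 14.3 and 10.9 CPM in normoxia and 4.86, 5.69 and 3.38 CPM in hypoxia (-1.42 ± 0.18, adjusted p = 2.82e-06). Psmb10, a catalytic subunit of the immunoproteasome, had 34.2, 35.7 and 33.1 CPM in normoxia and 14.4, 16.2 and 11.1 CPM in hypoxia (-1.25 ± 0.12, adjusted p = 1.94e-08). Rasgrp2, an exchange factor for Ras-family GTPases, had 3.04, 2.43 and 5.202 CPM in normoxia and 1.32, 0.825 and 1.55 CPM in hypoxia (-1.51 ± 0.33, adjusted p = 0.00199). Every hypoxia library was below every normoxia library in them. Kifc2, a kinesin, Fam195a, Ephx1, an epoxide hydrolase, Comtd1 and Kcnip3, a calcium-binding protein, fell by 1.17 to 1.46 on the log2 scale. The remaining 5 named by the rule lost their call on leaving out a library. They were Tap2, a peptide transporter with a second locus of the same symbol (adjusted p of 0.0648, 0.12, 0.11 and 0.103 without normoxia 2, normoxia 3, hypoxia 1 and hypoxia 2), and Dmpk (0.0665, 0.0642 and 0.0507 without normoxia 3, hypoxia 1 and hypoxia 2). The others were Gdpd5 (0.0716 and 0.0755 without normoxia 3 and hypoxia 2), Gdf15 (0.0777, 0.108, 0.12 and 0.0953 without normoxia 1, normoxia 2, hypoxia 1 and hypoxia 2) and Tert (0.0753 and 0.0527 without normoxia 2 and hypoxia 1).

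Loci without a gene name gave other shares than protein-coding genes. Of 1495 tested unannotated loci 19.1% were called higher and 1.41% lower, with a median log2 fold change of 0.35, whereas of 12438 protein-coding genes 8.80% were higher and 11.9% lower, with a median of -0.029. The unannotated loci took 1.22 to 1.27% of the counts in normoxia and 1.52 to 1.67% in hypoxia, without overlap.

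Markers of other cell types moved with oxygen as well, and their part in the results above was not tested. Summed over each list, fibroblast markers went from 3438 to 3975 CPM in normoxia to between 2390 and 2683 CPM in hypoxia, with Dcn and Lum at 0 counts. Col1a1, given above, held most of that sum, and of 4 tested fibroblast markers 1 was lower and 0 higher. Epithelial markers went from 1694 to 1875 CPM to between 2498 and 2866 CPM, with Sftpb and Nkx2-1 at 0, and this sum was nearly all Krt8, at 1799, 1855 and 1673 CPM in normoxia and 2849, 2800 and 2483 CPM in hypoxia (0.66 ± 0.12, adjusted p = 0.000213). Smooth muscle and pericyte markers went from 183 to 204 CPM to between 254 and 272 CPM, with Rgs5 at 0, and lymphatic markers from 486 to 512 CPM to between 423 and 439 CPM, with Prox1 at 0. Members went both ways, with 2 of 6 tested smooth muscle and pericyte genes higher and 1 lower. Of 2 tested lymphatic genes 1 was higher and 1 lower. The lower smooth muscle gene, Tagln, lost its call without normoxia 1, normoxia 2, hypoxia 2 or hypoxia 3 (adjusted p = 0.0795, 0.141, 0.0788 and 0.136) or without the filter (0.0665). Leukocyte markers stayed low, from 3.12 to 5.42 CPM to between 15.3 and 19.6 CPM, with Ptprc and Adgre1 at 0. That sum was carried by Csf1r, the receptor for colony-stimulating factor 1, with 2.98, 3.299 and 1.87 CPM in normoxia and 14.7, 17.9 and 13.9 CPM in hypoxia (2.56 ± 0.31, adjusted p = 1.26e-06). Endothelial markers went from 282 to 337 CPM to between 244 and 263 CPM, and of 10 tested members 0 passed in edgeR and 1 in DESeq2, with 2 at an unadjusted p under 0.05.

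How the response of these cells differed from that of WT cells with fructose was tested as the interaction of genotype and oxygen, between groups that share no library. In WT cells 3126 genes changed (21.2%), 1663 higher (11.3%) and 1463 lower (9.91%). Of the 2956 genes called in KO cells 1513 (51.2%, and 48.4% of the WT calls) were called in both, 1481 with the same sign and 32 with opposite signs. The interaction passed for 312 genes (2.11%), 154 with a more positive change in KO (1.04%) and 158 with a more negative change (1.07%). That count was 197 without normoxia 1, 164 without normoxia 2 and 189 without hypoxia 1. Across the tested genes the log2 fold changes of the 2 genotypes correlated at 0.44, a description over genes that are not independent.

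**Figure D4:**
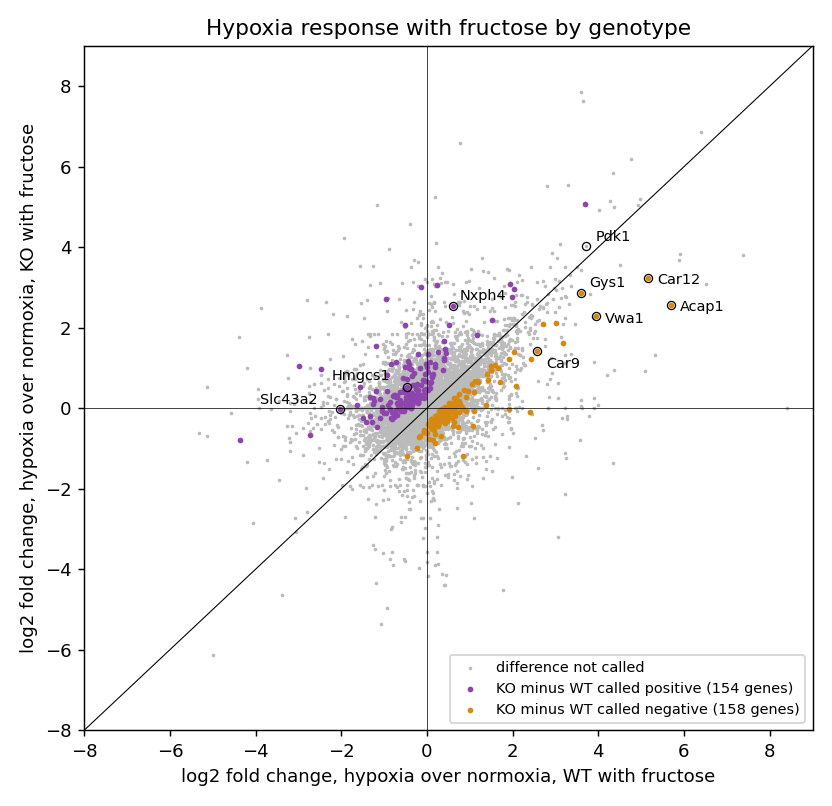
Log2 fold change, hypoxia over normoxia, of each tested gene in KO cells with fructose (vertical axis) against WT cells with fructose (horizontal axis), with the line of equal change; purple genes were called more positive in KO (154), orange more negative (158) and grey genes were not called. Pdk1 lies near the line, while Acap1, Vwa1, Car12 and Car9 lie below it and Hmgcs1 and Nxph4 above it.

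The core response was present in both genotypes, with 13 of 15 glycolysis genes and 24 of 31 other HIF targets higher in WT, against 13 and 26 in KO. Its size could still differ. In edgeR the interaction had an unadjusted p under 0.05 for 3 of 15 glycolysis genes and 11 of 31 HIF targets, against 2237 of 14770 genes. Pdk1, Bnip3 and Ldha changed by 3.72, 2.997 and 2.09 in WT, and their interaction values of 0.297 ± 0.14 (adjusted p = 0.3), 0.21 ± 0.15 (adjusted p = 0.538) and -0.05 ± 0.13 (adjusted p = 0.912) missed the threshold. The interaction was called for 1 of the 15 glycolysis genes, Pfkl, and for 2 of the 31 HIF targets, Zfp395, a zinc finger gene, at -0.54 ± 0.13 (adjusted p = 0.0224) and Errfi1, a feedback inhibitor of the EGF receptor, at 0.33 ± 0.09 (adjusted p = 0.0456), both chosen after their values were seen. Zfp395 lost the call without normoxia 1, normoxia 3 or hypoxia 3 (adjusted p of 0.0547 to 0.0641), and Errfi1 without any 1 of the 6 libraries (0.0527 to 0.113) or without the filter (0.124). Carbonic anhydrase genes of the export list and Gys1 of the glycogen list also rose less in KO. Car12 had 2.08, 3.63 and 3.04 CPM in normoxia and 98.8, 85.5 and 109.5 CPM in hypoxia in WT, and the difference of its log2 fold changes, KO minus WT, was -1.94 ± 0.32 (adjusted p = 0.00375). Car9 had 169, 151 and 223 and 948, 910.2 and 1120 CPM in WT, and a difference of -1.15 ± 0.15 (adjusted p = 0.000202). Gys1 had 30.3, 30.9 and 25.1 and 308, 304 and 355 CPM and a difference of -0.71 ± 0.13 (adjusted p = 0.00484), and Pfkl 78.1, 67.1 and 59.2 and 504, 500.1 and 538 CPM and a difference of -0.91 ± 0.17 (adjusted p = 0.0067). In these 4 genes every normoxia library of KO cells lay above every normoxia library of WT cells. In hypoxia the genotypes overlapped for Car9, Gys1 and Pfkl, and KO cells were the higher for Car12.

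Other large differences came from genes on no list. Acap1, a GTPase-activating protein for Arf6, had 5.100, 3.36 and 4.42 CPM in normoxia and 27.5, 26.5 and 19.2 CPM in hypoxia in KO cells, and 0.450, 0.217 and 0.731 CPM in normoxia and 21.5, 21.02 and 24.7 CPM in hypoxia in WT cells, a difference of -3.15 ± 0.34 (adjusted p = 1.43e-05). Vwa1, a matrix protein, changed by 2.29 in KO and 3.95 in WT, a difference of -1.66 ± 0.18 (adjusted p = 2.05e-05). In the other direction, Capn8, a calpain, changed by 1.099 in KO and -0.84 in WT, a difference of 1.93 ± 0.35 (adjusted p = 0.00493). Nxph4, a neurexophilin, changed by 2.54 and 0.599, a difference of 1.94 ± 0.44 (adjusted p = 0.0183) that was lost without normoxia 2 (adjusted p = 0.0532).

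Cholesterol synthesis had the largest number of called interactions of the 46 lists. In WT cells with fructose 1 of 24 tested genes was higher and 8 were lower (median -0.22), against 18 higher and 0 lower in KO (median 0.39). The interaction was positive and called for 15 of 24 and positive in sign for 24 of 24, with a median of 0.59 against -0.012 over all genes. The count of 15 was 9 without normoxia 1, 8 without normoxia 2, 9 without normoxia 3 and 9 without hypoxia 1. Hmgcs1 had 96.8, 107 and 107 CPM in normoxia and 76.04, 61.7 and 71.8 CPM in hypoxia in WT, a fall where KO cells rose, and a difference of 0.98 ± 0.14 (adjusted p = 0.000294). Cyp51 and Insig1 gave 0.699 ± 0.13 (adjusted p = 0.00493) and 0.73 ± 0.14 (adjusted p = 0.00652). Acss2 of fatty acid synthesis changed by 0.73 in KO and -0.48 in WT, a difference of 1.21 ± 0.21 (adjusted p = 0.00373).

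Other groups differed in fewer called members. Of 20 cytosolic ribosomal protein genes 10 were higher in WT and 0 in KO. Their interaction was positive in sign for 0 of 20 and called for 1, with 11 at an unadjusted p under 0.05 in edgeR. For 20 mitosis genes it was positive in sign for 0 and called negative for 3, with 13 at an unadjusted p under 0.05. Of 22 endoplasmic reticulum genes 17 were higher in WT and 4 in KO, and the interaction passed for 4, all negative. They were Calr, Canx, Pdia4 and Hyou1, chosen after their values were seen, with differences of -0.52, -0.38, -0.59 and -0.68 (adjusted p = 0.0251, 0.048, 0.0183 and 0.0281). Calr lost the call without normoxia 1, normoxia 2, normoxia 3 or hypoxia 3 (adjusted p = 0.0537, 0.0564, 0.0579 and 0.0668), Canx without any 1 of the 6 libraries (0.0668 to 0.105) and Pdia4 without hypoxia 3 (0.0517). Hyou1 lost it without normoxia 1, normoxia 2, hypoxia 1 or hypoxia 3 (adjusted p = 0.054, 0.0802, 0.0559 and 0.0725). Of 19 interferon response genes 12 were lower in WT and 1 in KO, and the median interaction was 0.74, above the 0.59 of cholesterol synthesis. Oas1a among them had 2 counts over the KO normoxia libraries and 5 over the KO hypoxia libraries, against 28, 29 and 69 in WT normoxia. It passed the filter through other groups, so KO cells could show no fall of it. The interaction was called and positive for 4 of the 19, Ifit3, Isg15, Oasl and Stat2, the middle pair chosen after their values were seen. Ifit3, an interferon-induced protein, had 4.92, 4.86 and 5.72 CPM in normoxia and 8.53, 10.8 and 11.6 CPM in hypoxia in KO, a change of 1.04 ± 0.18 (adjusted p = 0.000157), and 23.8, 24.6 and 18.9 and 16.9, 16.6 and 10.5 CPM in WT, a difference of 1.54 ± 0.24 (adjusted p = 0.00141). Isg15, a ubiquitin-like modifier, gave 1.003 ± 0.198 (adjusted p = 0.00831). Oasl gave 0.79 ± 0.18 (adjusted p = 0.0202), lost without normoxia 2 or hypoxia 3 (adjusted p = 0.0626 and 0.0647), and Stat2 gave 0.47 ± 0.12 (adjusted p = 0.0446), lost without any 1 library but normoxia 3 (adjusted p of 0.0507 to 0.127).

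Against KO cells with glucose, few differences passed the threshold. In KO cells with glucose 2072 genes changed (14%), 1176 higher (7.96%) and 896 lower (6.07%), and of the genes called with fructose 1456 (49.3%, and 70.3% of the glucose calls) were called in both, 1454 with the same sign and 2 with opposite signs. The interaction of sugar and oxygen passed for 1 gene (0.00677%) in edgeR and for 24 in DESeq2. In edgeR an unadjusted p under 0.05 was found for 870 of 14770 genes, against 2237 for the interaction of genotype and oxygen. The gene was an unannotated locus on chromosome 1 (chr1:247848799-247859256 in Rnor_6.0), with 105, 87.7 and 110.0 CPM in normoxia and 42.99, 40.5 and 46.1 CPM in hypoxia with fructose, a change of -1.18 against 0.15 with glucose and a difference of -1.33 ± 0.14 (adjusted p = 2.21e-05). It is a locus of no known function and was named after its value was seen. A difference that misses the threshold does not show that both sugars gave the same response. Slc2a1 changed by 2.101 with fructose and 1.82 with glucose, a difference of 0.28 ± 0.16 (adjusted p = 0.884), and Pdk1 by 4.02 and 3.42, a difference of 0.598 ± 0.14 (adjusted p = 0.189).

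For some of the groups described above the values with glucose were as follows. Of 24 cholesterol genes 2 were higher and 0 lower with glucose (median -0.06). The interaction passed for 0 of 24, with 19 at an unadjusted p under 0.05 and 2 called in DESeq2, and the smallest adjusted p was 0.11. The difference, fructose minus glucose, was positive for 24 of 24 (median 0.436), against 7219 of 14770 genes tested (median -0.002). Genes are no independent replicates, so such sign counts are a description only. Hmgcs1 had 259, 226 and 243 CPM in normoxia and 208, 190.4 and 234 CPM in hypoxia with glucose, a difference of 0.68 ± 0.14 (adjusted p = 0.11). Of 24 DNA replication genes 5 were lower with glucose (median -0.33), and the interaction passed for 0 of 24 in edgeR and in DESeq2, with 2 at an unadjusted p under 0.05. It was positive in sign for 3 of 24 (median -0.192). The ATF4 list and the tRNA synthetases each had 8 of 18 genes lower with glucose, against 1 with fructose. The ATF4 count with fructose was 3 without hypoxia 2 and 3 when the fit held the 12 KO or the 6 libraries alone. The interaction passed for 0 of 18 in each list in both edgeR and DESeq2, with 2 at an unadjusted p under 0.05. It was positive in sign for 16 of 18 ATF4 genes (median 0.302) and for 18 of 18 synthetases (median 0.239).

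**Figure D5:**
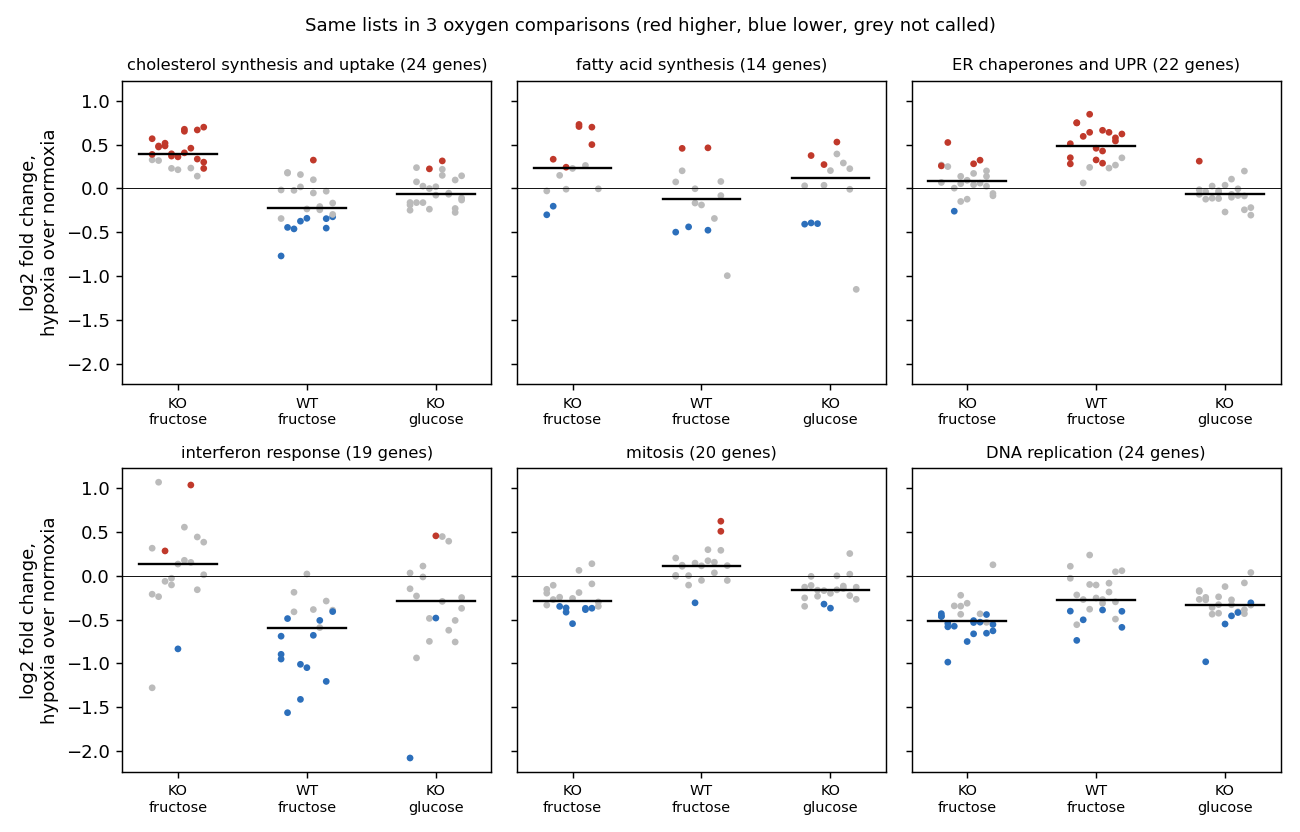
Log2 fold change, hypoxia over normoxia, of the tested members of 6 gene lists in KO cells with fructose, WT cells with fructose and KO cells with glucose, 1 point a gene (red called higher, blue called lower, grey not called), black bars the medians. Cholesterol synthesis is mostly red in KO cells with fructose (median 0.39) and not in the other columns (-0.22 and -0.06), and the endoplasmic reticulum list is mostly red in WT cells with fructose.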

How the data were processed

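Gene counts of 24 RNA-seq libraries were used, 6 of them in the comparison described; RNA and libraries were handled by Novogene, per the labels. The values deposited by the authors are raw counts, unscaled whole numbers for each Ensembl gene, with Rnor_6.0 coordinates. The submitters' processing notes name HISAT2, DESeq2 and Rnor_6.0. No version, counting program or strand setting is given in the sources used here, and reads of overlapping, antisense or near-identical genes may therefore be mixed. A stray hyphen in the column of WT normoxia glucose 3 was ignored when names were matched.

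Of 34523 genes, 14770 passed filterByExpr (minimum count 10, minimum total 15). Another 5 lines were empty, and 1978 loci without annotation were kept. TMM scaling and the robust quasi-likelihood fit of edgeR 4.0.16 (R 4.3.3) used 8 group means and all 24 libraries, with 16 residual degrees of freedom. P-values were adjusted by Benjamini-Hochberg over all tested genes, and a gene under 0.05 is called. Standard errors were derived from the F statistic. CPM is relative to the library's total count. Ratios of low counts carry a 95% Clopper-Pearson interval, for counting error only. The fit was tested on simulated counts.

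The comparison, its 46 gene lists (681 symbols, 667 matched, 590 tested) and the rules were chosen with earlier results of these data known. The genes eligible for naming were Pfkfb3, the 15 largest rises and the 15 largest falls (called, libraries apart, mean of at least 2 CPM, a gene symbol), and 5 genes in each direction of either interaction under the same limits. From a list came at most 5 called members by smallest adjusted p, with any called member opposed to its majority, and 19 genes were named whatever their value. A further 11 were named after their values were seen, and some genes are not reported here. Promoters came from RefSeq (GRCr8), whose coordinates are not those of the count table.

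Alternatives were DESeq2's size factors, no filter, the Wald test of DESeq2 1.42.0, the 12 KO or the 6 compared libraries alone, a replicate block, and leaving out each compared library. Whether equal sample numbers pair the libraries is not known. In KO cells with fructose, deviations of same-numbered libraries correlated at 0.002, 0.07 and 0.064, and those of differently numbered ones at -0.068 to 0.005.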

Additional observations from a re-analysis of the deposited data

Results flagged for a closer look

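Each gene here passed the test of a difference between responses, and each value is a difference of log2 fold changes, KO minus WT with fructose. Negative differences, where the response of KO cells lay below that of WT cells, were -3.15 for Acap1, -1.94 for Car12, -1.66 for Vwa1, -1.57 for Mtfp1, -1.54 for Rassf7, -1.15 for Car9, -0.91 for Pfkl, -0.71 for Gys1, -0.62 for Slc2a1, -0.56 for Loxl2, -0.54 for Zfp395, -0.44 for Des and -0.42 for Slc16a1. Those of chaperones, cell cycle and other genes were -0.68 for Hyou1, -0.59 for Pdia4, -0.52 for Calr, -0.38 for Canx, -0.44 for Hsp90ab1, -0.51 for Bub1 and -0.40 for Elovl5.

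Positive differences of sterol and lipid genes were 0.98 for Hmgcs1, 0.73 for Insig1, 0.70 for Cyp51, 0.55 for Sqle, 1.21 for Acss2, 0.78 for Scd1 and 0.42 for Acly. Those of interferon genes were 1.54 for Ifit3, 1.0 for Isg15, 0.79 for Oasl and 0.47 for Stat2. The others were 2.02 for Slc43a2, 1.94 for Nxph4, 1.93 for Capn8, 1.74 for Unc13a, 1.63 for Rab3b, 0.70 for Flt4 and 0.33 for Errfi1. Slc2a1 lost its call without any 1 of the 6 libraries (adjusted p of 0.0534 to 0.108) and with DESeq2's size factors (adjusted p = 0.0511). Des lost it with those size factors (0.0511) and without normoxia 1, normoxia 2, hypoxia 1 or hypoxia 3 (0.0654 to 0.0966). Other calls were lost as follows when a library was left out. For Mtfp1 the libraries were normoxia 2, normoxia 3 and hypoxia 3 (adjusted p = 0.0602, 0.0517 and 0.0517), for Slc43a2 normoxia 2 and hypoxia 1 (0.0609 and 0.0679), and for Scd1 normoxia 2, hypoxia 1 and hypoxia 3 (0.0602, 0.0563 and 0.0515). For Hsp90ab1 they were normoxia 2 and hypoxia 3 (0.0625 and 0.0547), for Elovl5 all but hypoxia 3 (0.0602 to 0.0911), for Bub1 all but hypoxia 3 (0.0562 to 0.107), and for Slc16a1 all but normoxia 3 (0.0662 to 0.124). Zfp395 lost its call without normoxia 1, normoxia 3 or hypoxia 3 (0.0547 to 0.0641) and Errfi1 without any 1 of the 6 (0.0527 to 0.113) or the filter (0.124). The calls of Nxph4 (normoxia 2, 0.0532), Pdia4 (hypoxia 3, 0.0517) and Oasl (normoxia 2 and hypoxia 3, 0.0626 and 0.0647) were lost likewise. Stat2 lost its call without any library but normoxia 3 (0.0507 to 0.127), Calr without normoxia 1, 2 or 3 or hypoxia 3 (0.0537 to 0.0668), Hyou1 without normoxia 1 or 2 or hypoxia 1 or 3 (0.054 to 0.0802), and Canx without any 1 of the 6 (0.0668 to 0.105). With DESeq2's size factors Elovl5 (0.0517), Slc16a1 and Canx (both 0.0677) lost theirs, and without the filter so did Elovl5 (0.0538), Slc16a1 (0.0589) and Canx (0.0851).

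Between sugars in KO cells, the unannotated locus on chromosome 1 gave a difference, fructose minus glucose, of -1.33.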

How the results depend on the processing

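The count of genes changed by hypoxia in KO cells with fructose stayed within 1.5 times of 2956 under all alternatives run, and was 2060 to 2647 (1033 to 1342 higher, 1022 to 1305 lower) when 1 library was left out. Whether equal numbers pair the samples is not known, and the replicate block gave 3990 calls (1825 higher, 2165 lower), or 3614 (1776 and 1838) with the 6 libraries alone. The genotype interaction gave 601 calls in DESeq2 (320 positive, 281 negative), 972 with the replicate block (428 and 544) and 164 to 288 (83 to 151 and 81 to 137) on leaving out 1 library. The sugar interaction gave 24 calls in DESeq2 (7 and 17), 5 with the 12 KO libraries alone (4 positive), 15 with the replicate block (5 and 10) and 1 to 4 (0 to 1 and 1 to 3) on leaving out 1 library. Why these counts moved was not tested beyond the smaller number of samples when a library is left out. Over the same omissions called members numbered 13 to 13 for glycolysis, 25 to 26 for other HIF targets, 12 to 18 for cholesterol synthesis, 8 to 11 for its interaction and 9 to 15 for DNA replication. Under the replicate block, or the block with the 6 libraries alone, called lower members numbered 10 or 8 for the nuclear respiratory chain, 3 or 7 for the ATF4 list, and 4 in both for pentose phosphate. Of 191 named genes called, 138 kept the call in every alternative, 53 lost it in at least 1 and 0 changed sign. Signs turned for 3 genes that were not called, and values without 1 library ran from -0.298 to 0.121 for Slc43a2, -0.054 to 0.091 for Hif1a and -0.020 to 0.046 for Pdia4. Slc43a2 was 0.016 with the replicate block and Pdia4 -0.001 without the filter. The median over all genes was -0.007 under TMM and -0.001 under DESeq2's size factors. With 3 libraries a group and genes such as Ppp1r3c at 3 counts in normoxia, the size of a fold from near 0 is poorly set.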

Other observations

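Smaller gene groups were counted in the same way in KO cells with fructose, to be read against 9.71% of all tested genes higher and 10.3% lower. Of 8 pentose phosphate genes 2 were higher and 2 lower, the latter including Prps2, which makes phosphoribosyl pyrophosphate, with 86.5, 77.7 and 72.9 CPM in normoxia and 48.3, 48.1 and 58.2 CPM in hypoxia (-0.57 ± 0.11, adjusted p = 0.000737). The pentose count was 1 higher without hypoxia 2 and 1 lower without normoxia 2, hypoxia 1 or hypoxia 3. The G1 list had 3 of 11 genes higher and 4 lower, or 2 lower without normoxia 3, hypoxia 1 or hypoxia 3. Among 12 circadian clock genes 1 was higher and 1 lower, near the share over all genes. Ciart, a repressor of the clock, had 18.3, 17.7 and 13.7 CPM in normoxia and 41.5, 42.7 and 39.6 CPM in hypoxia (1.36 ± 0.15, adjusted p = 1.77e-07), and Nr1d2, which encodes the receptor REV-ERB beta, had 42.9, 39.8 and 42.3 CPM in normoxia and 29.1, 27.96 and 29.6 CPM in hypoxia (-0.49 ± 0.09, adjusted p = 0.000229). The libraries of each gene were apart by oxygen.

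Of 12 genes of endothelial inflammation that passed the filter 2 were higher. Members such as Ptgs2, Vcam1 and Il1b had 0 to 2 counts over these 6 libraries and passed the filter through other groups, so the list says nothing of them. Tnfaip3, which encodes A20, a brake on NF-kappa B, had 1.15, 0.996 and 0.572 CPM in normoxia and 2.88, 3.21 and 3.49 CPM in hypoxia (1.87 ± 0.297, adjusted p = 5.77e-05), and Nfkbia rose by 0.64 on the log2 scale (adjusted p = 0.00388). Igf2r, a receptor that clears IGF2, had 327, 319 and 306 CPM in normoxia and 552, 506 and 520.3 CPM in hypoxia (0.77 ± 0.11, adjusted p = 2.21e-05), and its list had 2 of 11 genes higher and 1 lower, with 1 higher when any 1 library was left out and 0 lower without hypoxia 2. TGF-beta and BMP genes had 2 of 18 higher and 3 lower, with 0 or 1 higher when any 1 library was left out and 1 lower without normoxia 1 or hypoxia 2. The p53 targets had 0 of 13 higher and 3 lower (1 with the 6 libraries alone), with Ccng1 at -0.36 (adjusted p = 0.000534). The list of pyruvate entry had 2 of 8 higher and 2 lower, or 1 higher without normoxia 1 or hypoxia 3, and 0 lower without normoxia 1, hypoxia 1 or hypoxia 3 and 1 without normoxia 2 or normoxia 3. The list of Txnip and glucose sensing had 2 of 8 higher (1 without normoxia 1, normoxia 2, hypoxia 1 or hypoxia 3) and 1 lower, that gene being Mlx (-0.36, adjusted p = 4.95e-05). Arrdc4 had 0 counts in all 6 libraries and passed the filter through other groups, so it could not be called here. Of 6 metallothionein and iron genes 0 passed in edgeR and 1 in DESeq2, with 2 at an unadjusted p under 0.05.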
